A study of Homo sapiens with 6 samples.

Results

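Ventricular-like cardiomyocytes carried 326 dense clusters of accessible sites, among 20216 stitched clusters and single sites in all. Peaks of the 6 lists sharing 1 bp or more were fused, giving 153162 regions on chromosomes 1 to 22. The 27889 regions with a peak in every library (18.2%) were taken as shared, and shared regions no more than 12500 bp apart were joined. A joined group of at least 5 shared regions was called a dense cluster. The members were therefore chosen on peaks being present in all libraries, and sites missing from some libraries were not used. Peak width was no criterion of its own. It entered through the peak edges, which set the peaks that fused and the distance between regions.

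The assay was ATAC-seq, which inserts sequencing adapters into open DNA with the Tn5 transposase. It was run on cardiomyocytes at day 15 of differentiation from H9, a human embryonic stem cell line. The groups were 3 libraries with ZNF436 knockdown and 3 control libraries, each from 50000 cells of an independent differentiation, per the labels. How the knockdown was made is not given in the sources used here, and peak lists cannot show whether ZNF436 RNA fell. Knockdown libraries held 87871 to 115864 peaks and control libraries 50719 to 68342, so longer lists and knockdown cannot be told apart, and sequencing depth is unknown.

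ZNF436 belongs to the KRAB zinc finger proteins, which bind DNA, often in transposon-derived sequence, and recruit repressors of chromatin. Runs of closely spaced open sites are often found over genes that define a cell type, and stitching of neighbouring sites is the usual way to mark them. They also form where many promoters of broadly used genes stand side by side. In cardiomyocytes the genes of the sarcomere, the contractile unit, and of ion handling are among those known for such runs.

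The promoters of 3 cardiac genes inside dense clusters are shown because these genes lie in dense clusters described below and their starts could be matched to RefSeq. Each is the 250 bases before the gene's start, 5′ to 3′ on the gene's strand, from RefSeq on GRCh38.p14, whereas all peak positions are on hg19. Of the 9 cardiac genes described in dense clusters, 5 matched the promoter table, and in 3 of these the RefSeq start was also the outer end of the gene. Capitals mark matches to motifs of cardiac factors on either strand. The motifs searched were the GATA site AGATAA, the MCAT site CATTCC, the TATA box TATAAA, the CArG box of serum response factor and the MEF2 site.
KCNH2 promoter, chr7:150978322-150978571, minus strand: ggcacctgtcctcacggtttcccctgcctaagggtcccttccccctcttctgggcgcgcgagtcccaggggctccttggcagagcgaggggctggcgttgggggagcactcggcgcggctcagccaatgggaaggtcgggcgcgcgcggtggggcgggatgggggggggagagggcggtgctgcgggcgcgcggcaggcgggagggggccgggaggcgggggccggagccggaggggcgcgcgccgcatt
MYL7 promoter, chr7:44141333-44141582, minus strand: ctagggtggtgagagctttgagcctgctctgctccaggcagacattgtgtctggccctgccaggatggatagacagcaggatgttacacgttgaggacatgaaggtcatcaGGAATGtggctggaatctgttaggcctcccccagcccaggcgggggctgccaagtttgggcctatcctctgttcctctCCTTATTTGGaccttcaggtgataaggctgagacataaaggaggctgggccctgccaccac
TNNI3 promoter, chr19:55157733-55157982, minus strand: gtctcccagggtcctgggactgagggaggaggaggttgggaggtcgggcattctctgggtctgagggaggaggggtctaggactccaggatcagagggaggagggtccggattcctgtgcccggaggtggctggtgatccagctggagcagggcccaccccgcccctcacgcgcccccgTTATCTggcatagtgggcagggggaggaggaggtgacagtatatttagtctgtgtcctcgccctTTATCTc

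KCNH2 encodes the channel of the rapid delayed rectifier potassium current, MYL7 the atrial regulatory myosin light chain and TNNI3 cardiac troponin I. The MYL7 promoter held an MCAT match whose first base lay 139 bases before the start, and a CArG box 61 bases before it. The TNNI3 promoter held GATA matches 71 and 7 bases before the start, and the KCNH2 promoter held none of the motifs. Of 27305 RefSeq promoters of the same length, 11.9% held the MCAT letters, 1.14% a CArG box, 9.37% the GATA letters, 11.1% the TATA letters and 2.9% a MEF2 site. No matches overlapped. On hg19, a region over the start was called in all 6 libraries at KCNH2 and at MYL7. At TNNI3 it was called in 3 knockdown libraries and 1 control library, so the region at its start was not a shared one.

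The dense clusters were few and compact, and together they held 2235 shared regions, 8.01% of all shared regions. Their spans added up to 10.9 Mb, or 0.39% of the length between the first and last peaks of the chromosomes. The span ranged from 5.91 to 162 kb with a median of 29.2 kb, and the number of shared regions from 5 to 40 with a median of 6. Shared regions filled a median of 24.0% of a cluster's span. Just inside the threshold, 138 clusters had 5 regions and a median span of 24.8 kb, and just outside it, 315 stitched groups had 4 regions and a median span of 18.0 kb. Only 36 dense clusters had 10 or more regions.

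The clusters were spread unevenly over the chromosomes. Chromosome 19 had 41 dense clusters holding 17.1% of its shared regions, chromosome 1 had 39, chromosome 17 had 34 and chromosome 11 had 29. Chromosome 21 had only 6 clusters, but these held 24.7% of its shared regions. Chromosome 13 had none.

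The largest dense clusters were not over cardiac genes, as none of the 10 with most regions overlapped a listed cardiac gene. The longest peak-free stretch of each chromosome, taken over all 6 lists, served as a landmark. On most chromosomes it lay at the centromere, which hg19 leaves mostly unassembled, or on the short arm of chromosomes such as 21. Of the 326 dense clusters, 48 lay within 3 Mb of that stretch, and they included 7 of the 10 clusters with most regions and 3 of the 5 with the widest span. In these 48 clusters shared regions filled a median of 44.8% of the span, against 22.8% in the 278 clusters elsewhere. The 3 Mb window was taken from earlier results of these data, and it also takes in ordinary genes such as PDGFRA, the receptor for platelet-derived growth factor alpha.

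The cluster with most regions was chr21:11024694-11186946, with 40 shared regions over 162 kb. Next came chr4:49093267-49180143, chr21:9846597-9930587 and chr20:29580784-29653889 with 19 regions each. The others of the 7 were chr21:10697950-10820374 with 18, and chr15:20443963-20512873 and chr2:92269029-92326169 with 16 each. Of the 100 peaks with the highest score in each list, 35, 38 and 35 lay in the 48 clusters in the knockdown libraries and 41, 39 and 38 in the control libraries. The score is the authors' value from their peak caller, and is compared here within each list only. Mappability of these stretches was not analysed here.

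**Figure D1:**
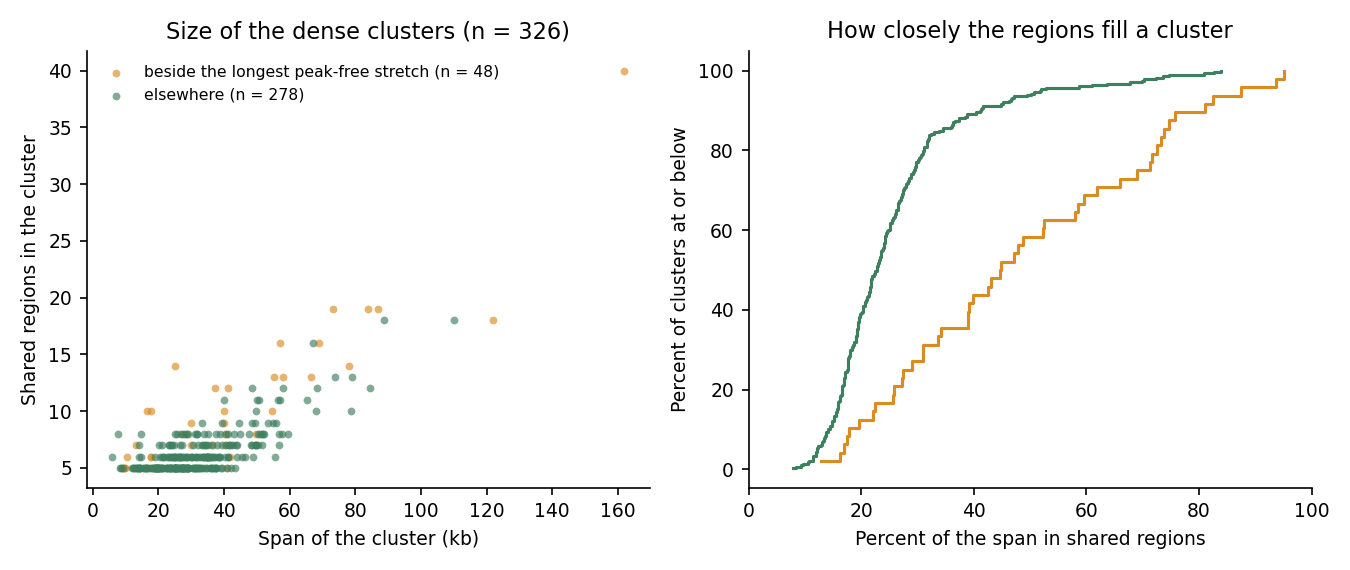
The left panel plots the number of shared regions against the span in kb for each dense cluster, and the right panel the percent of clusters at or below a given percent of span filled by shared regions. Clusters beside the longest peak-free stretch (n = 48) include the cluster of 40 regions and are filled to a median of 44.8%, against 22.8% for the clusters elsewhere (n = 278).

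The other 3 of the 10 largest clusters were chr17:8021040-8130617 with 18 shared regions, chr3:75667732-75756342 with 18 and chr8:145688027-145755016 with 16. Gene positions on hg19 were written from general knowledge, because no hg19 annotation was used, and the genes outside the cardiac and cell type lists were placed after the clusters had been seen. The cluster on chromosome 17 overlapped PER1 of the circadian clock, VAMP2 of synaptic vesicle fusion, the mitotic kinase AURKB, the ciliary gene TMEM107 and the Notch target HES7. The cluster on chromosome 8 overlapped the DNA helicase RECQL4, the alanine aminotransferase GPT and FOXH1, a partner of SMAD proteins. No gene was placed in the cluster on chromosome 3.

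Genes were also placed in other clusters elsewhere. Chr6:26156211-26235335, with 13 regions, overlapped the linker histone genes H1-4 and H1-3. Chr11:776561-850368, with 13, overlapped the ribosomal protein gene RPLP2, the tetraspanin gene CD151, the lipase gene PNPLA2 and the mitochondrial carrier gene SLC25A22. Immediate early genes, which are switched on rapidly by stimuli, were also met, namely FOSB in a cluster of 12 regions, NR4A1 in 1 of 8 and FOS in 1 of 6. LMNA, which encodes the nuclear lamins A and C and is mutated in some cardiomyopathies, lay in a cluster of 11 regions.

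Among cardiac genes, the dense clusters held mainly those of the sarcomere. Of 64 cardiac genes, 9 lay in a dense cluster, 47 in stitched groups or single shared regions of 1 to 4, and 8 in none. The 9 comprised 6 of 23 sarcomere genes, 1 of 19 transcription factors, 1 of 12 calcium and channel genes, 1 of 7 metabolism and stress genes and 0 of 3 secreted factors. Markers of other cell types gave 1 of 30 in a dense cluster, PDGFRA with 5 regions, and 17 of 30 in no stitched region. A shared region lay over 56 of the 64 cardiac genes and over 13 of the 30 markers of other cell types. The marker lists differed. Fibroblast and smooth muscle markers had a shared region in 7 of 7, and 1 of these 7 was in a dense cluster. Pluripotent markers had one in 2 of 4, endothelial in 2 of 4 and neural in 2 of 5. Endoderm and liver markers had one in 0 of 5, epicardial in 0 of 2 and skeletal in 0 of 3. The pooled contrast therefore does not hold for fibroblast and smooth muscle genes.

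KCNH2 lay in the cardiac cluster with most regions, chr7:150652856-150692257, with 9 regions over 39.4 kb, which also overlapped the nitric oxide synthase gene NOS3. MYL7, LDB3 and TBX2 lay in clusters of 7. LDB3 encodes a protein of the Z-disc, where sarcomeres are anchored, and TBX2 a repressor of chamber genes in the atrioventricular canal. TNNI3 and TNNC1, which encodes cardiac troponin C, lay in clusters of 6. MYL4, the atrial essential light chain, TPM1, a tropomyosin of the thin filament, and CRYAB, a small heat shock protein, lay in clusters of 5. The placement of MYL4 was the only one of the 9 that did not pass the check against RefSeq.

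Many genes central to cardiomyocytes fell short of 5 regions. MYH6, which encodes the alpha myosin heavy chain, and the transcription factors GATA4 and HAND2 lay in stitched groups of 4. MYH7, TNNT2, ACTN2 and ACTC1, all of the sarcomere, lay in groups of 3, and NKX2-5, TTN and the natriuretic peptide genes NPPA and NPPB in groups of 2. The placements of HAND2 and ACTC1 did not pass the check against RefSeq. The 8 genes with no shared region over them were MYL2, CSRP3, XIRP2, BMP10, TBX5, IRX4, PLN and CKM. MYL2, the ventricular regulatory light chain, had 1 region in any library over the gene, and PLN, the regulator of the calcium pump, had 2. A gene was counted only where a stitched region overlapped the gene itself, so distant sites do not enter.

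**Figure D2:**
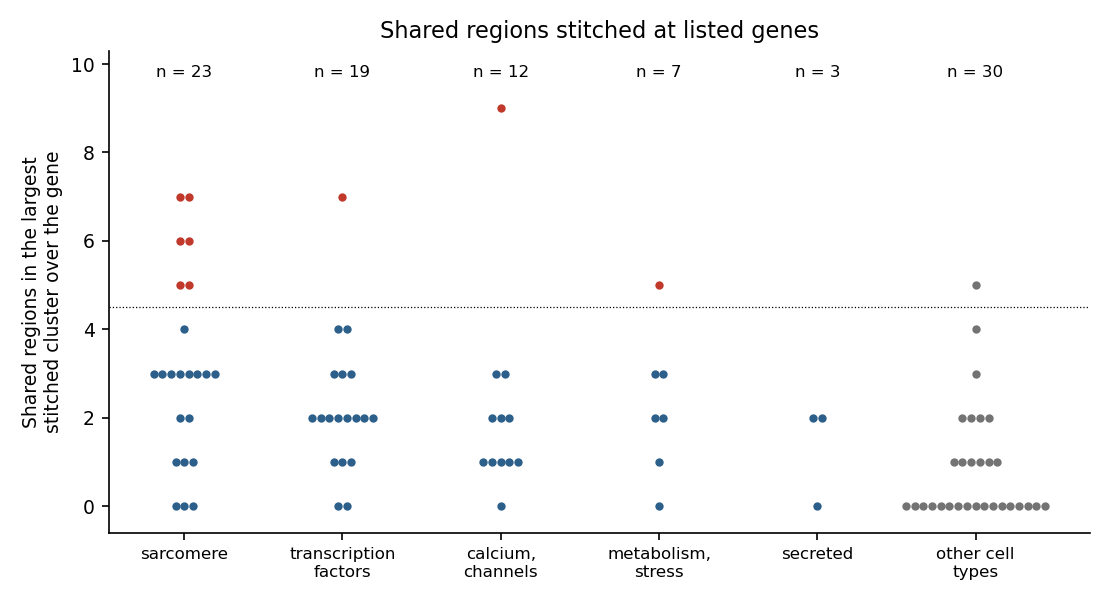
Each point is a listed gene, and the vertical axis gives the shared regions in the largest stitched cluster that overlaps it, with a dotted line between 4 and 5 regions. Cardiac genes are red above that line and blue below it, and markers of other cell types are grey. The 9 cardiac genes above the line include 6 of the 23 sarcomere genes, and 1 of the 30 markers of other cell types lies above it.

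ZNF436 knockdown libraries covered more bases within the dense clusters than control libraries. Peaks covered 2.78, 2.83 and 2.41 Mb of the clusters in knockdown libraries, against 2.19, 2.29 and 2.32 Mb in control libraries. The knockdown values all lay above the control values. Means were 2.67 ± 0.229 Mb in knockdown and 2.27 ± 0.0686 Mb in control (SD, n = 3 each), a ratio of 1.18 ± 0.107. The exact permutation test, two-sided, gave p = 0.1, the smallest value that 3 against 3 libraries allow.

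The difference lay in the 278 clusters elsewhere. These were covered over 2.02, 1.96 and 1.74 Mb in knockdown libraries and 1.32, 1.37 and 1.53 Mb in control libraries, a ratio of 1.35 ± 0.149 (exact permutation p = 0.1). The 48 clusters beside the longest peak-free stretch were covered over 0.756, 0.865 and 0.666 Mb in knockdown libraries and 0.868, 0.913 and 0.789 Mb in control libraries, a ratio of 0.89 ± 0.133, and the groups overlapped (exact permutation p = 0.2). Set against each other within each library, bases in the 48 clusters were 0.374, 0.441 and 0.382 of those in the 278 in knockdown, against 0.657, 0.664 and 0.514 in control. That quotient separated the groups, with means of 0.399 ± 0.0365 in knockdown and 0.612 ± 0.0845 in control (exact permutation p = 0.1).

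Most of that difference lay at the shared sites themselves, where peaks were wider. Shared regions of the 278 clusters were covered over 1.72, 1.68 and 1.54 Mb in knockdown libraries and 1.22, 1.25 and 1.36 Mb in control libraries, a ratio of 1.29 ± 0.106 (exact permutation p = 0.1). The median peak at these sites was 624 ± 47.8 bp wide in knockdown and 428 ± 24.0 bp in control (exact permutation p = 0.1). In the 48 clusters it was 487 ± 67.1 bp in knockdown and 588 ± 82.3 bp in control, with overlapping groups (exact permutation p = 0.2). At shared sites outside dense clusters the widths were 631 ± 39.4 bp in knockdown and 406 ± 34.1 bp in control, so the wider peaks were also found outside the clusters.

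The clusters took a smaller share of the longer knockdown lists than of the control lists. This direction was favoured by the rule, because members had to be called in every library and the shorter control lists limit such sites. The median log2 change in share was -0.4 over all 20216 features and -0.42 over the 326 dense clusters. The test on the share therefore does not show a change particular to the dense clusters. Dense clusters held 5.79, 6.68 and 6.41% of a library's covered bases in knockdown and 10.5, 10.7 and 8.75% in control. The groups did not overlap, and the difference was -3.68 ± 1.16 percentage points (exact permutation p = 0.1). The direction was kept in each alternative tried, but the size was not: it was -1.17 points with lists cut to equal length by score and clusters rebuilt, and -5.92 with stitching within 25 kb. With equal lists and the same clusters, the covered bases were 2.11 ± 0.118 Mb in knockdown and 2.2 ± 0.0654 Mb in control, a ratio of 0.962, and the groups overlapped.

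**Figure D3:**
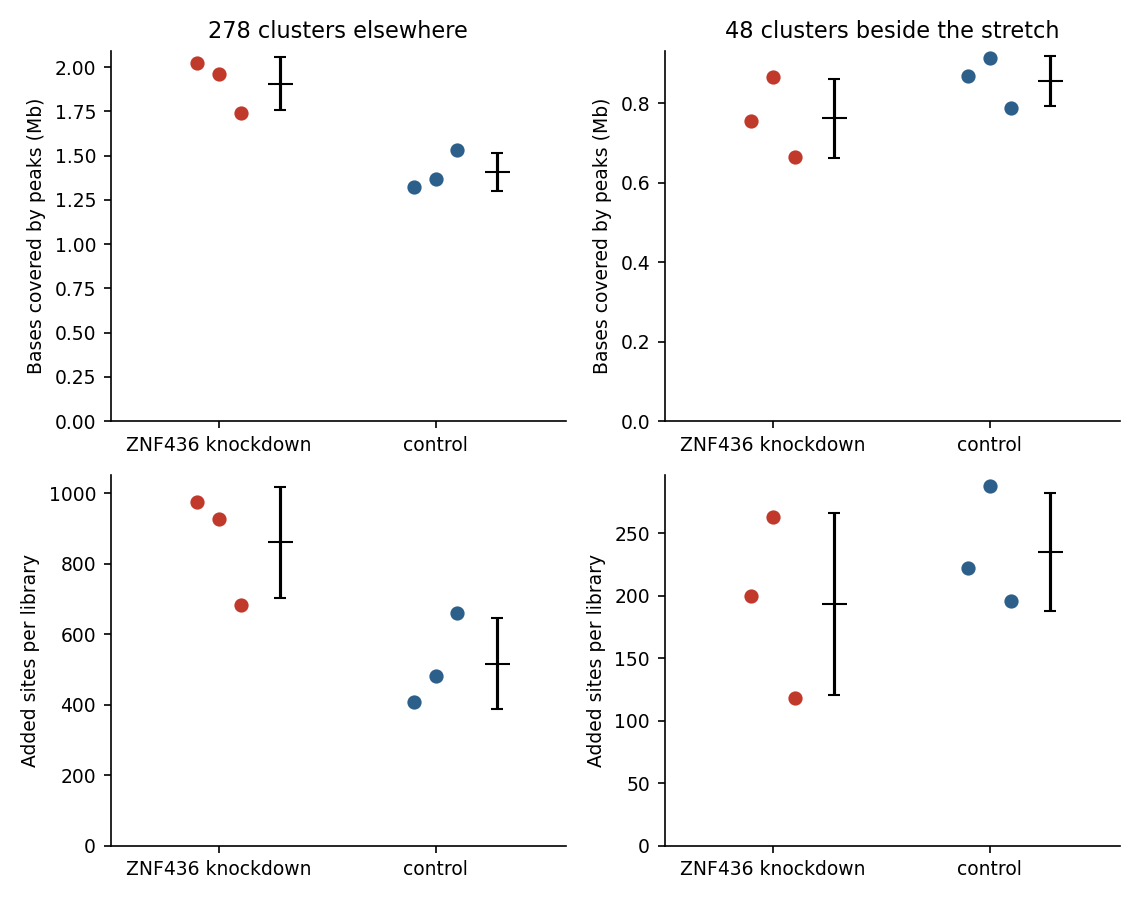
Points are libraries, with the mean and SD as a black bar beside them (n = 3 each). The upper panels plot bases covered in Mb and the lower panels added sites, for the 278 clusters elsewhere (left) and the 48 beside the longest peak-free stretch (right). In the clusters elsewhere the knockdown libraries lie above the control libraries in both measures, and in the 48 the groups overlap.

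Between the shared regions, the clusters held further sites that were missing from at least 1 library. There were 2574 such added sites, a median of 6 per cluster and at most 41, and 6 clusters had none. Knockdown libraries called 1176, 1190 and 800 of them and control libraries 630, 770 and 856. The groups overlapped, since knockdown replicate 3 lay below control replicate 3, and the ratio was 1.4 ± 0.363 (exact permutation p = 0.2). In the 278 clusters elsewhere the counts were 976, 927 and 682 in knockdown and 408, 482 and 660 in control, without overlap, a ratio of 1.67 ± 0.517 (exact permutation p = 0.1). In the 48 they were 200, 263 and 118 in knockdown and 222, 288 and 196 in control (exact permutation p = 0.5). With lists of equal length the direction over all clusters turned. The ratio was then 0.391 in the same clusters and 0.544 with clusters rebuilt, and the groups did not overlap (exact permutation p = 0.1 each).

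Most added sites were called in few libraries. Of the 2574, 1333 were called in 1 library and 262 in 5. Knockdown libraries alone called 1005 (39.0%), control libraries alone 674 (26.2%) and both groups 895. All 3 knockdown libraries and no control library called 92, while all 3 control libraries and no knockdown library called 14. Outside the clusters, 58.7% of the sites missing from some library were called in knockdown alone and 12.8% in control alone.

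Added sites were denser inside the clusters than outside in both groups, and more so in control. Per Mb of cluster span there were 96.9 ± 20.3 added sites in knockdown and 69.0 ± 10.5 in control, and per Mb outside 23.8 ± 4.93 in knockdown and 7.97 ± 3.05 in control. The density inside was 3.77, 4.59 and 3.9 times that outside in knockdown libraries and 9.98, 10.6 and 6.86 times in control libraries. The groups did not overlap, and the ratio of the means was 0.446 ± 0.109 (exact permutation p = 0.1). It kept its direction in each alternative tried.

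By cluster, the mean number of added sites was higher in knockdown in 226 clusters, lower in 66 and equal in 34. The 3 knockdown values all lay above the 3 control values in 59 dense clusters (18.1%), where 7.99% of the stitched clusters of 2 or more regions did so. They all lay below in 8, where the background was 0.326%. That background was mostly the 4269 groups of 2 to 4 regions, whose median span was 8.24 kb against 29.2 kb in dense clusters. Shorter spans leave less room for added sites, and no background matched for span was used. The 59 comprised 57 of the 278 clusters elsewhere and 2 of the 48.

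Covered bases were then compared cluster by cluster. In 213 of the 326 dense clusters the 3 knockdown values all lay above the 3 control values, where 54.2% of all 20216 stitched clusters and single regions did so. They all lay below in 11, where the background was 0.465%. The clusters elsewhere gave 201 of 278 above (72.3%) and 3 below, and the 48 gave 12 above and 8 below. Of the groups of 2 to 4 regions away from the stretch, 66.4% lay above. The median ratio of mean bases was 1.43 in the clusters elsewhere, 0.925 in the 48 and 1.4 over all 20216.

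Scaled to each library's total, a larger part of the dense clusters than of all features was called as fallen. Covered bases divided by the library's total were fitted for all 20216 features with limma, and a feature was called at a Benjamini-Hochberg adjusted p below 0.05. The share fell in 168 dense clusters (51.5%), where 23.5% of all features and 29.4% of the groups of 2 to 4 regions fell. It rose in 0, where 0.737% of all features rose. At an unadjusted p below 0.05, limma gave 0 higher and 212 lower dense clusters. It fell in 41 of the 48 clusters beside the stretch and in 127 of the 278 elsewhere. The median log2 change of all features was -0.40. Relative to that median, the 48 clusters had a median log2 change of -0.61 and the 278 one of 0.02. All 326 dense clusters together had one of -0.02, so as a set they did not shift further than other features. Whether larger features are called more readily was not tested.

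The count of falls depended on the scaling and on single libraries. Without scaling, 166 dense clusters rose, where 26.3% of all features rose, and 6 fell, where 0.134% fell. Scaled to the median ratio of all features, 1 rose, where 0.193% rose, and 5 fell, where 0.0643% fell. Without knockdown replicate 1 the scaled count of falls was 28, and without knockdown replicate 2 it was 94.

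**Figure D4:**
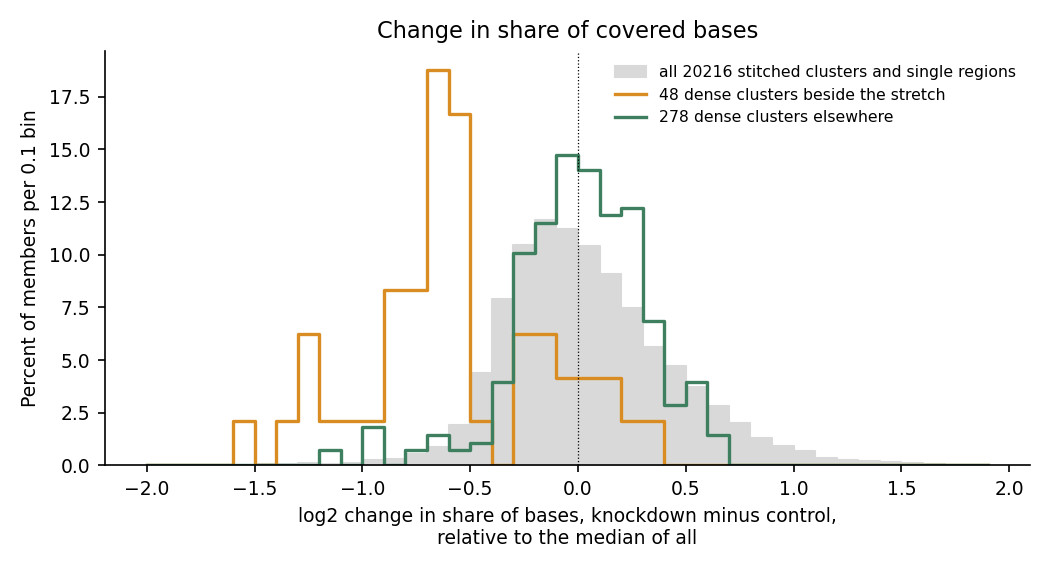
The horizontal axis is the log2 change in share of covered bases, knockdown minus control, relative to the median of all features, and the vertical axis the percent of members in each bin of 0.1 width. The 48 clusters beside the stretch (median -0.61) lie left of the 278 clusters elsewhere (median 0.02), which lie over the grey distribution of all 20216 features.

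The 8 dense clusters with the largest falls in share had 5 to 19 shared regions, and 6 of them lay beside the longest peak-free stretch. The largest was at chr1:142634109-142663069, with 5 regions. Its peaks covered 4.45, 8.36 and 4.21 kb in knockdown libraries and 10.2, 13.4 and 9.47 kb in control libraries, so that every knockdown library lay below every control library. Its share changed by -1.91 on the log2 scale (SE 0.25, limma, Benjamini-Hochberg adjusted p = 0.0022), or -1.51 relative to the median of all. It did not pass with scaling to the median ratio or with lists of equal length (limma, Benjamini-Hochberg adjusted p = 0.0592 and 0.103).

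Further falls on chromosome 1 were at chr1:143426277-143467341 (log2 -1.73) and chr1:142781866-142809138 (-1.64). The cluster of 16 regions at chr15:20443963-20512873 was covered over 22.4, 35.7 and 18.5 kb in knockdown and 44.5, 46.7 and 36.2 kb in control (log2 -1.68). The cluster of 19 regions at chr21:9846597-9930587 was covered over 19.8, 29.0 and 14.1 kb in knockdown and 34.2, 40.2 and 28.8 kb in control (log2 -1.66). In the chromosome 21 cluster knockdown replicate 2 reached just above control replicate 3. Covered bases overlapped in the same way at chr1:143426277-143467341, with 11.2 kb in knockdown replicate 2 and 10.5 kb in control replicate 3.

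The cluster at chr17:21548094-21560674 (log2 -1.59) also fell without scaling (log2 -0.70) and with scaling to the median ratio (log2 -1.18). Its peaks covered 3.96, 5.34 and 3.79 kb in knockdown and 6.93, 7.42 and 6.66 kb in control, with no overlap. The other 2 falls lay on the distal long arm of chromosome 4, at chr4:190471842-190529830 (log2 -1.54) and chr4:190628473-190662889 (-1.52). Covered bases overlapped between the groups in both chromosome 4 clusters. At chr4:190471842-190529830 knockdown replicate 2 covered 19989 bp, above control replicate 1 with 19644 bp and control replicate 3 with 18625 bp. At chr4:190628473-190662889 knockdown replicate 2 covered 8116 bp and control replicate 3 covered 7152 bp. Of the 8, the chromosome 17 cluster alone passed with scaling to the median ratio, at a limma adjusted p of 0.0465 (Benjamini-Hochberg), while the other 7 had 0.0592 to 0.115. Without scaling, limma's Benjamini-Hochberg adjusted p was above the threshold in 5 of the 8. It was 0.0588 at chr1:143426277-143467341, 0.0543 at chr1:142781866-142809138, 0.0513 at chr21:9846597-9930587, and 0.121 and 0.0875 in the chromosome 4 clusters. With equal lists in the same clusters both chromosome 4 clusters passed (log2 -4.63 and -4.69, limma, Benjamini-Hochberg adjusted p = 0.00331 and 0.00905). The chromosome 17 cluster was left out of that fit. None of the placed genes lay in any of the 8.

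The 9 dense clusters over these cardiac genes were covered more widely in knockdown libraries. Their ratios of mean covered bases, knockdown over control, ran from 1.36 to 2.12 with a median of 1.81, where the median over all 20216 features was 1.4. In 8 of them the 3 knockdown values all lay above the 3 control values, where 54.2% of all features and 72.3% of the 278 clusters elsewhere did so. In the other, over TBX2, the lowest knockdown value of 7.09 kb lay below the highest control value of 7.31 kb. Without scaling, limma's adjusted p was under the threshold in 7 of the 9, all but TBX2 and CRYAB, as it was in 159 of the 278 clusters elsewhere and in 26.3% of all features. Scaled to the library totals, 8 of the 9 did not pass in either direction. CRYAB passed, with a log2 change of -0.45 (SE 0.14, limma, Benjamini-Hochberg adjusted p = 0.0375), where 23.5% of all features fell. That call was lost in limma with the replicate block (Benjamini-Hochberg adjusted p = 0.0664), without trend and robust estimation (0.114), with scaling to the median ratio (0.911) and with equal lists in the same clusters (0.65). It was also lost when any 1 library other than control replicate 3 was left out (limma, Benjamini-Hochberg adjusted p = 0.0536 to 0.165). Relative to the median of all features, their log2 changes ran from -0.05 for CRYAB to 0.59 for TPM1.

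TPM1 had the highest ratio of the 9. Its cluster of 5 regions at chr15:63333047-63347001 was filled to 67.8% by shared regions. Peaks covered 9.55, 8.4 and 8.77 kb of it in knockdown libraries and 4.12, 3.81 and 4.68 kb in control libraries, a ratio of 2.12 with no overlap. It was the only dense cluster that rose with scaling to the median ratio (log2 0.60, limma, Benjamini-Hochberg adjusted p = 0.0477). With lists cut to equal length it did not pass (log2 0.34, limma, Benjamini-Hochberg adjusted p = 0.28).

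MYL4 followed. The MYL4 cluster at chr17:45282035-45317749 was covered over 5.85, 5.52 and 5.44 kb in knockdown and 2.69, 2.5 and 2.9 kb in control, a ratio of 2.08. Its libraries also differed in added sites, with 5, 3 and 6 in knockdown and 0, 0 and 0 in control.

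The clusters over MYL7, of the thick filament, and LDB3, of the Z-disc, had ratios near the median of the 9. The MYL7 cluster at chr7:44162401-44187219, which holds the start with the CArG box, was covered over 6.29, 5.96 and 6.34 kb in knockdown and 2.76, 2.65 and 4.55 kb in control, a ratio of 1.87. The LDB3 cluster at chr10:88421460-88448618 was covered over 8.04, 7.25 and 8.42 kb in knockdown and 2.91, 3.91 and 6.16 kb in control, a ratio of 1.83. Control replicate 3, the longest control list, was the highest control library in both. LDB3 had 8, 7 and 8 added sites in knockdown and 0, 0 and 4 in control.

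Both troponin clusters held 6 shared regions. The TNNC1 cluster at chr3:52467581-52490878 was covered over 5.19, 4.82 and 4.62 kb in knockdown and 2.1, 2.83 and 3.15 kb in control, a ratio of 1.81. The TNNI3 cluster at chr19:55667381-55691758 was covered over 5.87, 5.99 and 4.63 kb in knockdown and 2.78, 3.35 and 3.77 kb in control, a ratio of 1.66. The difference between the troponin ratios was not tested.

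The KCNH2 cluster was the largest of the 9. It was covered over 10.4, 10.7 and 9.68 kb in knockdown and 4.49, 5.6 and 7.97 kb in control, a ratio of 1.7, and had 9, 7 and 8 added sites in knockdown and 3, 2 and 6 in control. The TBX2 cluster at chr17:59471419-59494626 was covered over 9.85, 8.68 and 7.09 kb in knockdown and 3.68, 4.91 and 7.31 kb in control. The CRYAB cluster at chr11:111782443-111808860, with the lowest ratio of the 9, was covered over 5.11, 4.0 and 4.08 kb in knockdown and 2.73, 3.31 and 3.63 kb in control.

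**Figure D5:**
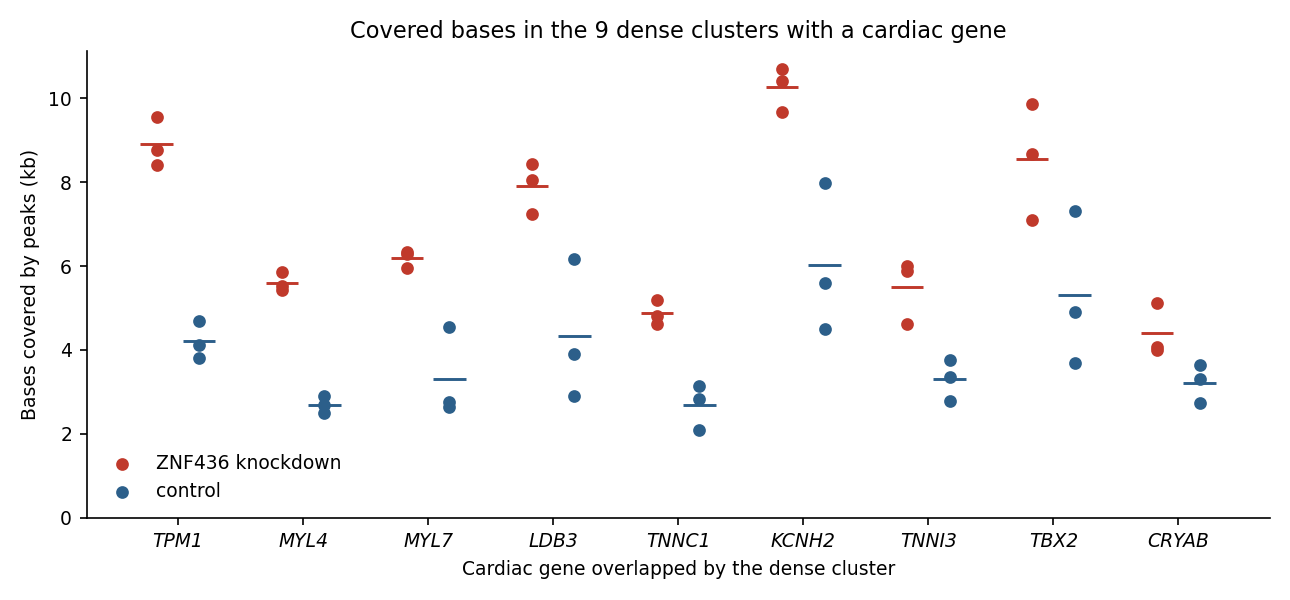
Each point is the number of bases in kb covered by a library's peaks within the dense cluster over the named gene, with the group mean as a line (n = 3 each) and genes ordered by the ratio of means. Knockdown libraries lie above control libraries in 8 of the 9 clusters, with TPM1 at a ratio of 2.12 on the left and CRYAB at 1.36 on the right.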

How the data were processed

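ATAC-seq peaks of 6 libraries, 3 with ZNF436 knockdown and 3 controls, were analysed. The submitters' processing notes name hg19, bedtools 2.30.0 and Bowtie2 2.4.5. Each deposited list gives a peak's position and an integer score, which is the value of the authors' peak caller (lowest 20 to 25) and was read as a rank inside its own list. The sources used here give no caller settings, duplicate removal or Tn5 shift. Depth is unknown, so no counting interval is given.

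Merging, joining and counts were done in pandas 2.3.3 and numpy 2.4.6 under Python 3.11.15. An added site is a region inside a cluster's span that is not called in all 6 libraries. Values over libraries had a two-sided exact permutation test, 3 against 3. Features were fitted in limma 3.58.1 (R 4.3.3, trended and robust) on log2 of covered bases over the library's total on chromosomes 1 to 22. On data simulated for knockdown against control over 20216 features, limma recovered 9% of 1.5-fold changes and 77% of 2-fold changes, and called 0.005% of unchanged features. The simulation gave every feature the median spread of all and changed only a small part of them. Its rates therefore do not describe the dense clusters in particular or a shift shared by most features. The members and lists were chosen with earlier results of these data known.

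The clusters named are the 10 with most regions, the 5 widest, up to 8 largest rises and falls in share, and those over cardiac list genes. For the rises and falls, the groups had to be without overlap in share, though not in covered bases. Other genes were placed after the clusters were seen. Of 144 genes placed on hg19 from general knowledge, 118 had a shift from the RefSeq GRCh38.p14 position that was alike within 200 bp at both ends or at a placed gene within 5 Mb. Among all 64 cardiac genes 47 did, so the counts of cardiac genes by cluster rest in part on placements that did not pass. Among the 9 cardiac genes in dense clusters 8 did, and 49 of the 50 placed later. Nothing was converted between builds. The cardiac lists leave out 1 gene that is not reported here.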

Additional observations from a re-analysis of the deposited data

How the results depend on the processing

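The ratio of covered bases in clusters, 1.18, turned to 0.962 with lists of equal length in the same clusters, 0.991 with stitching within 5 kb, 0.932 with at least 10 regions and 0.89 in the clusters beside the longest peak-free stretch alone. That of shared-region bases, 1.14, turned to 0.997, 0.988, 0.941 and 0.905 in the same settings. The ratio of added sites, 1.4, turned to 0.391 with equal lists in the same clusters, 0.544 with equal lists and clusters rebuilt, 0.937 with at least 10 regions and 0.823 in the clusters beside the stretch. The cause of these turns was not tested.

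No dense cluster rose in share, except 6 with stitching within 25 kb, 1 with scaling to the median ratio, 1 without control replicate 3 and 166 without scaling. The falls, 168, numbered 4 with equal lists rebuilt, 16 with equal lists in the same clusters, 110 with the stronger 75% of each list, 61 and 309 with stitching within 5 and 25 kb, 6 without scaling, 5 with the median ratio, 66 in limma without trend and robust estimation, 29 with at least 10 regions and 41 beside the stretch. Fewer clusters enter the last 2, and rebuilt lists also change which clusters exist. With equal lists in the same clusters, features without a covered base in some library were left out of the fit. There 317 of the 326 dense clusters entered, and 42 of the 48 beside the stretch. Large falls such as chr15:20443963-20512873 and chr21:9846597-9930587 were among those left out, so the 16 does not cover them.

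Leaving out each library in turn gave 28 to 181 falls and 0 to 1 rises. The ratio of covered bases ran from 1.14 to 1.24, of shared-region bases from 1.12 to 1.19, of added sites from 1.3 to 1.57 and of the quotient from 0.397 to 0.485, and the difference in share from -4.29 to -3.3. That difference, -3.68 points, was -1.17 with equal lists rebuilt, -2.06 and -5.92 with stitching within 5 and 25 kb, -1.89 with at least 10 regions, -2.0 beside the stretch and -1.68 elsewhere.

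Relative to the median of all, TBX2's cluster turned to -0.06 with stitching within 5 kb. CRYAB's turned to 0.12 with 500 bp added and ran from -0.13 to 0.02 when each library was left out, above 0 without knockdown replicate 2 (0.01) or control replicate 2 (0.02). The stretch alternatives were chosen after seeing the data.

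Whether replicate numbers pair the libraries could not be settled. Same-numbered deviations correlated at -0.003, 0.03 and 0.043, and differently numbered ones at -0.042 to 0.013. Such small values do not show that the libraries were unpaired. With the number as a block, limma gave 149 falls and 0 rises, and the ratios were 1.18, 1.14, 1.39 and 0.453 and the difference -3.68, with exact sign-flip p no lower than 0.25, the smallest possible. The lists give no depth, so wider or more peaks cannot be told apart from deeper sequencing.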
